A study of Mus musculus with 80 samples.

Results

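The genes described here are 10 major urinary protein (Mup) genes in mouse liver: Mup1, Mup2, Mup3, Mup7, Mup9, Mup10, Mup11, Mup17, Mup20 and Mup21. They were taken by gene symbol from the table of raw gene counts and are 10 of the 22 rows in it named Mup and a number, among 78275 gene rows in all. All 10 passed the filter on low counts and were tested with 21187 genes. Several of these genes are near-identical copies, so their summed counts are given beside the single rows.

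Major urinary proteins are small barrel-shaped lipocalins that the liver of the mouse secretes into the blood and the kidney passes into the urine. They bind volatile pheromones and release them slowly from scent marks, and some of them, such as MUP20 (darcin), act on the behaviour of other mice by themselves. Their transcription in hepatocytes is known to depend on growth hormone pulses, androgens and glucocorticoids, and adult males usually make more than females.

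Livers came from C57BL/6 mice aged 8 to 12 weeks, housed in groups of 4, kept in constant darkness after 10 days of 12 h light and 12 h dark, and killed every 4 h from circadian time (CT) 8 to CT44. Control mice had food throughout, and fasted mice lost their food at CT10, so that CT8 is a fed baseline in both groups and CT44 is 34 h without food. Each of the 10 times had 2 males and 2 females per treatment, 80 libraries in all, 1 mouse per library. Poly(A) RNA from the centre of the left lobe was sequenced in pairs of 76-base reads.

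Gene counts per library ran from 25534901 to 59927771, with a median of 42303883. Titles and characteristics of the samples gave different sexes for 40 libraries and different treatments for 40, and grouping followed the titles, whose names the columns carry. Xist and Ddx3y counts matched the titles' sex in 80 of 80 libraries. In the CT8 control female labelled replicate 2, 31.3% of counts fell on the ribosomal row Rn18s-rs5, against 0.0812% in the other CT8 control female. Hepatocyte markers (Alb, Apoa1, Ttr, Serpina1c and Hnf4a) summed to between 55560 and 120000 counts per 1000000 (CPM) from CT12 to CT44, while pancreatic acinar markers had a median of 0 CPM. All CPM values are scaled by the trimmed mean of M values (TMM).

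How alike the copies are decides how single rows can be read, so the same 60 coding bases are shown for the distinct forms. They are bases 121 to 180 of the Mup17 coding sequence and the bases aligned to them, 5′ to 3′, from the GENCODE M21 transcripts, and capitals mark bases that differ from Mup17.
Mup17: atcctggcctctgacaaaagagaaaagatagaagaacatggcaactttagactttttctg
Mup1, Mup2, Mup9, Mup10 and Mup11: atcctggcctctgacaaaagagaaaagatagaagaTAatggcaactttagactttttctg
Mup7: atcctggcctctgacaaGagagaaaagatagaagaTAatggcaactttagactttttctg
Mup20: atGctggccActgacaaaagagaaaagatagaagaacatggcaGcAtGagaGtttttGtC
Mup3 and Mup21: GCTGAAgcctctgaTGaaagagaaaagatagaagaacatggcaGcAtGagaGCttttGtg
Within these 60 bases, 5 genes could not be told apart, and Mup3 and Mup21 shared the same 14 differences from Mup17. Over the whole coding sequence, Mup1, Mup2, Mup9, Mup10, Mup11 and Mup17 were at least 98.35% identical to Mup7. Mup20 was 90.11% identical to Mup7, Mup21 83.7% and Mup3 82.16%, while Mup3 and Mup21 were 94.77% identical to each other. Of the 76-base windows of its transcript, a length equal to that of 1 read, Mup3 had 93.4% found in no other transcript, Mup21 90% and Mup20 56.6%. The 7 near-identical genes had between 0% (Mup2) and 31.7% (Mup17) of such windows, so a count for one of them can hold reads from another. Counts for those 7 rows are therefore uncertain one by one.

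Promoter sequence is shown for 1 of the near-identical genes and for Mup3, because both carry the same run of letters before the start. For these 2 members, on the minus strand of chromosome 4, the 120 bases that end with the motif TATATAA (in capitals) are shown from RefSeq, build GRCm38.p6. The Mup17 stretch lies at chr4:61595851-61595970 and the Mup3 stretch at chr4:62087322-62087441.
Mup17: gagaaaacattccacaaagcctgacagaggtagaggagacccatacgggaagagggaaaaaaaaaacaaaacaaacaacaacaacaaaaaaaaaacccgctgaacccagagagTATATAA
Mup3: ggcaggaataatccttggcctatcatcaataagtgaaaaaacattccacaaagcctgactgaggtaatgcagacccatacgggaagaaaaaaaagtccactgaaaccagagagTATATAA
RefSeq promoters were matched for 8 members, all but Mup1 and Mup20. The letters TATATAA, on either strand within 250 bases before the start, were found in 6 of the 8 (Mup2, Mup3, Mup9, Mup10, Mup17 and Mup21) and in 3.04% of 32851 mouse promoters. This search was added after the data had been seen. The 6 promoters are much alike, so they are not 6 separate observations. In them the run ended from 1 (Mup21) to 24 (Mup9) bases before the annotated start. The letters AGAACA (glucocorticoid receptor) were found in 2, Mup3 and Mup21, and in 16.1% of all promoters. The letters TTCNNNGAA (STAT5), CACGTG (E-box), TTANGTAA (D-box) and TATAAA were found in 0 of the 8, and in 7.02%, 6.02%, 2.06% and 12.4% of all promoters. TATATAA does not contain TATAAA, and these matches describe letters only.

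In control livers the Mup genes stood at high levels in males and at lower levels in females. Summed counts of the 10 genes ran from 8346 to 19759 CPM in 20 control males (median 16304, mean 15490 ± 3011 SD) and from 1524 to 3222 CPM in 20 control females (median 2014, mean 2091 ± 415 SD). The sexes did not overlap. Together the 10 genes made up a median of 1.68% of all gene counts in control males (range 0.85% to 1.96%). In control females they made up 0.209% (range 0.159% to 0.343%).

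**Figure D1:**
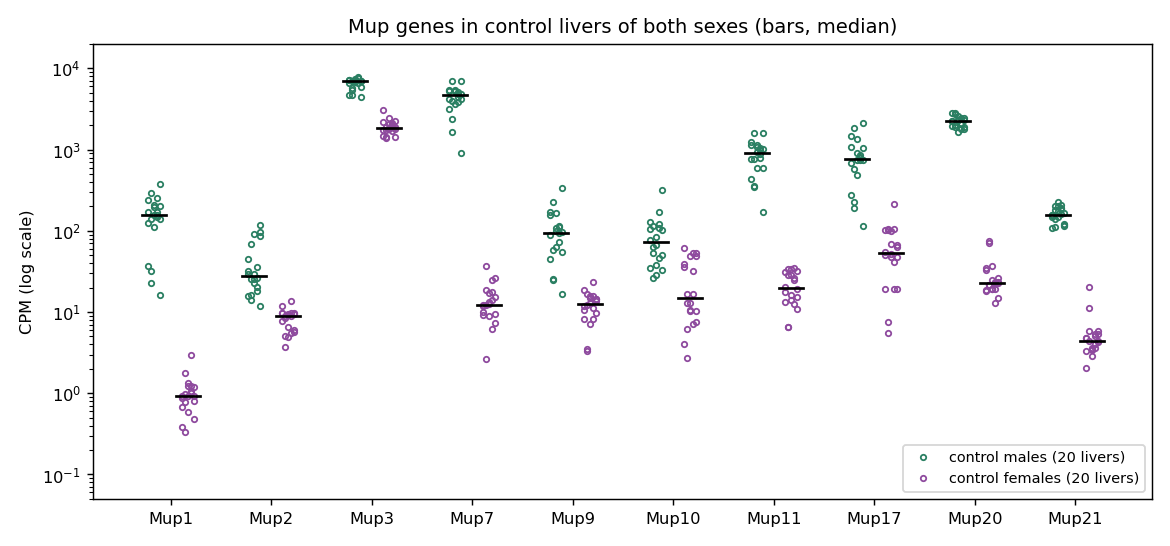
TMM-scaled CPM on a log axis of each of the 10 Mup genes in 20 control male and 20 control female livers, CT8 to CT44; each point is 1 liver and the bar is the median. Mup3 is high in both sexes. Mup1, Mup3, Mup7, Mup11, Mup20 and Mup21 do not overlap between the sexes, while Mup2, Mup9, Mup10 and Mup17 do. The share of all genes without such overlap was not computed.

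Order among the genes was compared per kilobase of transcript. In control males Mup3 had the highest median, 7062 CPM per kb (range 4566 to 8067), then Mup7 with 5014 (969 to 7630) and Mup20 with 2431 (1798 to 3064). Mup11 (974) and Mup17 (831) followed, and Mup21, Mup1, Mup9, Mup10 and Mup2 lay between 234 and 29.9 CPM per kb. Each gene's range over the 20 male livers overlapped that of its neighbour in the order except between Mup20 and Mup11. In control females Mup3 had 1893 CPM per kb (1426 to 3160) and no other member came near it: Mup17, the next, had 57.8 (5.94 to 229), and Mup1, the lowest, had 0.995 (0.355 to 3.18). All the neighbours below Mup3 overlapped in females.

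This made the composition of the sum different between the sexes. Mup3 held 43.1% ± 5.87 of the summed counts in control males and 91.3% ± 2.62 in control females (SD, n = 20 each). Mup7 held 27.4% ± 6.03 in males and 0.701% ± 0.405 in females, and Mup20 15.4% ± 5.99 and 1.43% ± 1.14. Mup11 and Mup17 held 5.38% and 5.12% of the male sum, and 1% and 3.04% of the female sum. The female total was thus mainly Mup3, the member whose transcript shares least with the others.

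Comparing the sexes over all control times, all 10 genes were higher in males by edgeR's quasi-likelihood test, with p-values adjusted over all genes by Benjamini-Hochberg and a threshold of 0.05. In the same comparison 18.6% of the tested genes were higher in males. The summed counts were 7.47-fold higher (log2 2.90, standard error (SE) 0.133, adjusted p = 7.53e-23). Among the members the smallest difference was that of Mup3.
Mup3 ran from 4493 to 7938 CPM in control males (median 6949) and from 1403 to 3109 CPM in control females (median 1862), a log2 difference of 1.79 (3.46-fold, adjusted p = 7.02e-19). Mup7 ran from 898 to 7073 CPM in males (median 4648) and from 2.68 to 36.7 CPM in females (median 12.3), with a log2 difference of 8.35, or 326-fold (adjusted p = 6.83e-22). Mup20, darcin, had 1669 to 2843 CPM in males (median 2256) and 12.9 to 74.0 CPM in females (median 22.9), an 83.6-fold difference (log2 6.38, SE 0.21). In all 3 genes the lowest male stood above the highest female. The share of all genes apart in this way was not computed.

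The other members lay between these. The log2 differences were 7.37 for Mup1, 5.41 for Mup11, 4.96 for Mup21, 3.79 for Mup17, 3.06 for Mup9, 2.19 for Mup2 and 2.03 for Mup10. Mup1 had few counts in females, between 0 and 128 per library over both treatments. In Mup2 the lowest control male (11.9 CPM) was under the highest control female (13.6 CPM), and Mup9, Mup10 and Mup17 overlapped likewise. The sex difference was called in fasted livers too, for 10 of 10 members against 19% of all genes, and the sum was 8.38-fold higher in fasted males (log2 3.07, SE 0.142, adjusted p = 1.32e-22). For Mup10 that call was lost without the mice numbered male replicate 2 (0.71, adjusted p = 0.161).

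Other sex-biased liver genes went the way their lists were named. Of 17 male-biased genes, 16 were higher in control males (median log2 3.45, against -0.01 over all genes), among them Hsd3b5, a steroid dehydrogenase, and Nudt7, a peroxisomal hydrolase of coenzyme A. Of 15 female-biased genes 15 were lower in males (median log2 -8.44; 20.6% of all genes were lower), among them Fmo2, a flavin-containing monooxygenase. The 5 genes with no Mup symbol whose log2 CPM went most closely with that of the Mup sum over the 80 livers, of 11557 genes considered, were Cyp7b1 (r = 0.973), Susd4 (0.957), C6 (0.955), Nat8 (0.952) and Gstp1 (0.95). The 80 points share the sex difference. Within the 40 males r was 0.724 for Cyp7b1, an oxysterol hydroxylase, and 0.832 for Susd4, and within the 40 females 0.707 and 0.423. Gstp1, a glutathione transferase, had r = 0.533 in males and 0.0562 in females.

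In fasted livers the summed Mup counts were lower than in controls when the 9 times from CT12 to CT44 were averaged. The 18 fasted males ran from 5329 to 18975 CPM (median 12106) and the 18 fasted females from 624 to 2616 CPM (median 1492), each overlapping the controls of its sex, whose medians at those times were 16304 and 1984.5 CPM. In the fit over both sexes the sum fell by 0.375 on the log2 scale (SE 0.0927, 0.771-fold, adjusted p = 0.000476). Without the mice numbered female replicate 2 the change was -0.26 and its call was lost (adjusted p = 0.0622). Of the 10 members 3 fell, Mup2, Mup3 and Mup21, beside 32.9% of all tested genes that fell and 62.5% that changed either way, so the members' count is close to the background. The members' median was -0.39, against -0.02 over all genes. Fewer cells of a type and less RNA per cell cannot be told apart in these whole-liver libraries.

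Mup2 moved most among the members, though it has no window of its own. From CT12 to CT44 it had 3.2 to 50.0 CPM in fasted males (median 15.3) and 0.794 to 15.3 CPM in fasted females (median 4.22), against medians of 27.7 and 9.07 CPM in the controls of those times. It fell by 1.02 on the log2 scale (SE 0.207, adjusted p = 3.08e-05). Mup21 had 45.6 to 201 CPM in fasted males (median 110) and 0.994 to 8.87 CPM in fasted females (median 2.99), against control medians of 158 and 4.38 CPM, and fell by 0.64 (SE 0.128, adjusted p = 2.51e-05). Mup3 had 2853 to 7915 CPM in fasted males (median 5477) and 566 to 2405 CPM in fasted females (median 1339), against 6949 and 1818 CPM, and fell by 0.34 (SE 0.0761, adjusted p = 0.000168). Each of the 3 overlapped between treatments in both sexes.

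The other 7 members did not pass the test, and each estimate was below 0. Mup10 had -0.49 (adjusted p = 0.0567), Mup7 -0.43 (0.0912), Mup17 -0.41 (0.238), Mup1 -0.37 (0.301), Mup9 -0.35 (0.223), Mup11 -0.28 (0.236) and Mup20 -0.21 (0.149), on the log2 scale by edgeR. Their standard errors ran from 0.124 for Mup20 to 0.303 for Mup1, so differences of the size seen in Mup3 were not detectable for most of them at this spread between mice. When the 9 times were tested jointly, the sum (adjusted p = 0.00297) and 4 members were called, Mup2, Mup3, Mup10 and Mup21, beside 61.7% of all genes.

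**Figure D2:**
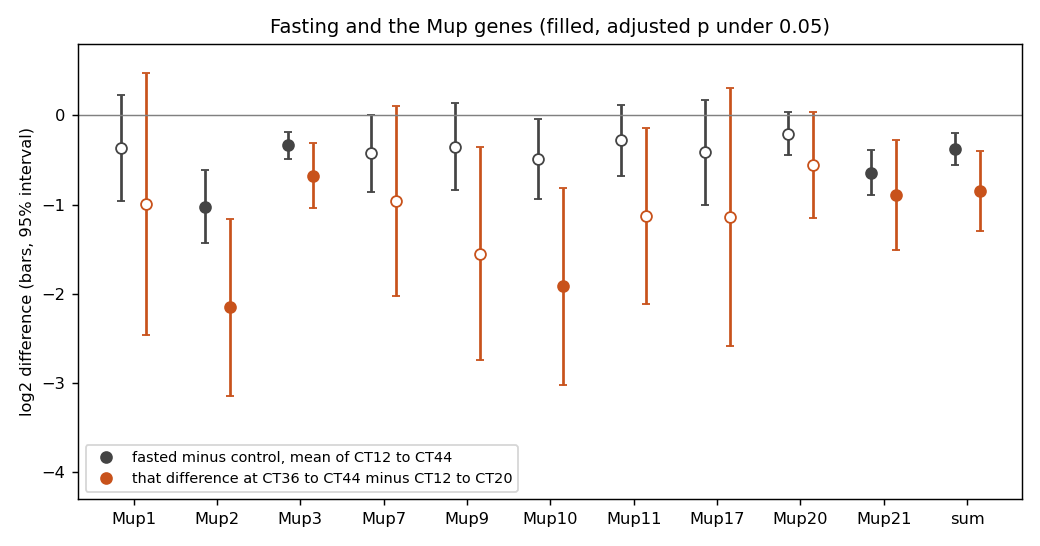
Log2 differences with 95% intervals for each Mup gene and the sum: fasted minus control averaged over CT12 to CT44 (grey), and that difference at CT36 to CT44 minus the one at CT12 to CT20 (orange); filled points passed an adjusted p of 0.05. Every point lies below 0, and Mup2, Mup3, Mup21 and the sum are filled in both.

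Time by time, the lower sum was seen late in the fast. At CT8, before food was removed, the sum differed by 0.19 (SE 0.278, adjusted p = 0.847), and 0 of 10 members were called by edgeR, beside 1.33% of all genes. At an unadjusted p under 0.05 the count there was 1, Mup21, with a log2 difference of 1.09 (edgeR, adjusted p = 0.141). Mup21 had 4.74 and 4.45 CPM in the control females of CT8 and 23.3 and 7.95 CPM in the females yet to be fasted, and in females alone it was called as higher in the latter (log2 1.77, SE 0.559, edgeR adjusted p = 0.049). From CT12 to CT32 the sum's differences lay between -0.46 (CT32, adjusted p = 0.279) and 0.25 (CT16, adjusted p = 0.593), and 0 of these 6 times were called by edgeR, 0 of them with an unadjusted p under 0.05. The sum was then called at CT36 (-0.82, SE 0.279, adjusted p = 0.0253), CT40 (-0.98, SE 0.28, adjusted p = 0.00437) and CT44 (-0.69, SE 0.279, adjusted p = 0.0445), which are 26, 30 and 34 h without food. With any 1 of the 4 numbered sets of mice left out (male or female, replicate 1 or 2), 0 to 2 of the 9 times were called, 0 of them without female replicate 2.

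**Figure D3:**
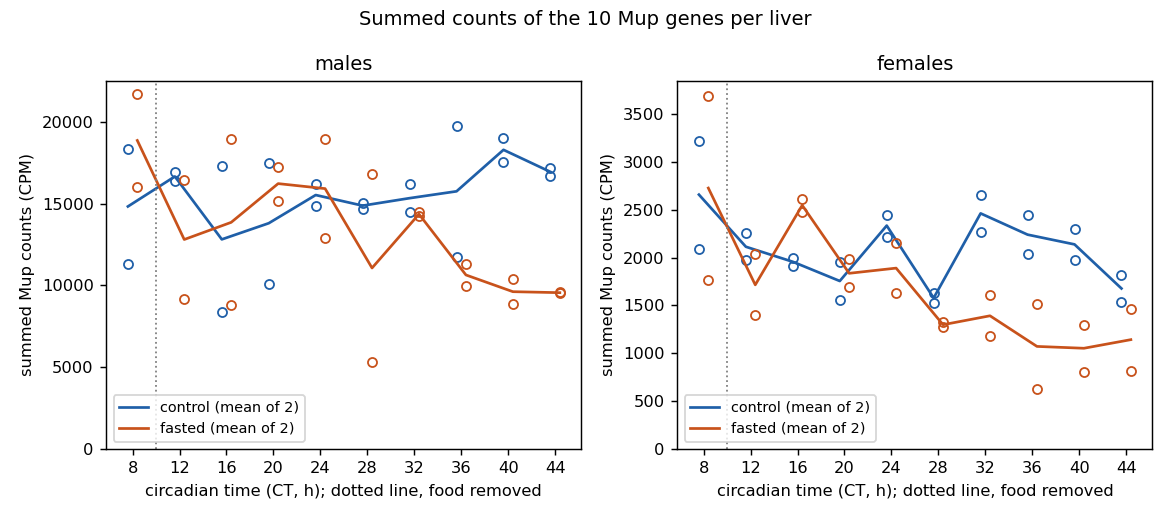
Summed counts of the 10 Mup genes (CPM) by circadian time in males and females; each point is 1 liver, lines join the means of the 2 mice, and the dotted line marks the removal of food at CT10. Fasted and control livers of either sex are apart at CT36 to CT44, and fasted male replicate 1 at CT28 is the lowest male at 5329 CPM.

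The values of single livers show how far apart the groups were by then. At CT36 the control males had 19759 and 11762 CPM and the fasted males 9948 and 11334. At CT40 they had 19032 and 17571 against 10378 and 8857, and at CT44 17208 and 16693 against 9524 and 9590. The fasted males were thus all below the control males, and at CT36 by only a little.
Control females had 2033 and 2447 CPM at CT36, 1973 and 2302 at CT40, and 1815 and 1538 at CT44. Fasted females had 1517 and 624, 1299 and 804, and 1466 and 816 CPM at the same times. Over CT36 to CT44 the sum did not overlap between treatments in males (control 11762 to 19759, fasted 8857 to 11334) or in females (control 1538 to 2447, fasted 624 to 1517). Of the 10 members 2 did not overlap in males, Mup7 and Mup21, and 2 in females, Mup2 and Mup3, while 9.26% of all genes in males and 11.1% in females had all fasted livers below all controls.

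At single times, the members called were Mup2 and Mup10 at CT36 (14% of all genes were lower), and Mup2, Mup3 and Mup21 at CT40 (21.2%) and CT44 (20.7%). At CT40 Mup3 had 5804 and 6815 CPM in control males, 5158 and 4466 in fasted males, 1737 and 2095 in control females and 1119 and 706 in fasted females. Its log2 difference was -0.73 (SE 0.229, adjusted p = 0.00909). The fasted livers were the lower ones in each sex.
Mup21 had 111 and 150 CPM in control males, 88.6 and 45.6 in fasted males, 5.93 and 3.52 in control females and 2.32 and 0.994 in fasted females at that time, a difference of -1.21 (SE 0.4, adjusted p = 0.0135). Mup2 had 68.0 and 91.4 CPM in control males, 16.2 and 5.43 in fasted males, 8.40 and 9.37 in control females and 4.23 and 1.03 in fasted females, a difference of -2.30 (SE 0.646, adjusted p = 0.00358). Neither gene overlapped between treatments within a sex at CT40. Like Mup3, both were picked by their calls on these same values, with 2 livers in each group. The share of all genes without overlap at CT40 was not computed. Mup7 had 7052 and 5297 CPM in control males and 2800 and 2181 in fasted males at CT40, and its difference of -1.38 (SE 0.675) did not pass the test (adjusted p = 0.101).

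A contrast chosen after these values had been seen compared the fasting difference at CT36 to CT44 with that at CT12 to CT20. The sum's difference was lower late in the fast by 0.85 on the log2 scale (SE 0.227, adjusted p = 0.00568). Of the members 4 were called, Mup2 (-2.15), Mup10 (-1.92), Mup21 (-0.89) and Mup3 (-0.68), beside 11.3% of all genes with a later difference that was lower. The 10 members' median was -1.06, against -0.02 over all genes. The sum's call was lost without the mice numbered male replicate 1 (-0.62, adjusted p = 0.122) or female replicate 2 (-0.69, adjusted p = 0.106).

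The difference of the fasting effect between the sexes was tested itself. For the sum it was 0.12 on the log2 scale, males minus females (95% interval -0.24 to 0.48, adjusted p = 0.773), so a difference of up to about that size either way was not detectable. By edgeR 0 of 10 members were called, 0 had an unadjusted p under 0.05 and 0 were called by DESeq2 or limma-voom, beside 12.4% of all genes called by edgeR. In males alone the sum was lower by 0.32 (adjusted p = 0.0442) and in females alone by 0.43 (adjusted p = 0.00413). Among the members the widest gap was that of Mup10, -0.80 in males and -0.19 in females, with an interval of the difference from -1.50 to 0.29.

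No 24 h rhythm of the Mup genes was found with food. In the 40 control livers 0 of 10 members were called by edgeR's joint test of a cosine and a sine, 0 had an unadjusted p under 0.05, and 0 were called by DESeq2 or limma-voom, while 41.9% of 20114 genes were called. From trough to peak the fitted sum changed by only 0.20 (log2; adjusted p = 0.4). The largest fitted change from trough to peak was that of Mup17, 1.00 (edgeR, adjusted p = 0.223), and the smallest adjusted p that of Mup9 (trough to peak 0.89, adjusted p = 0.147 by edgeR).
In fasted livers, where the fit also held a linear trend, 0 of 10 members were called by edgeR, where 47.1% of genes were, and 0 had an unadjusted p under 0.05. With no filter on low counts 8 members were called, and the share of all genes called there is not given here. That setting also changed the adjusted p of Mup2's fasting difference far more than its estimate, as given below. The cause was not tested, so these 8 calls are not read as rhythms. For the fasted sum the fitted change from trough to peak was 0.25 (log2; adjusted p = 0.52). The difference of the rhythm between the treatments was called for 0 of 10 members by edgeR, 0 of them with an unadjusted p under 0.05, against 23.2% of genes. With no filter it was called for 8 members, and the share of all genes is again not given here. For the sum the edgeR adjusted p of the rhythm difference was 0.344.

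Between 2 mice of the same sex, treatment and time, the near-identical rows varied far more than the distinct ones. In control males the pooled standard deviation of log2 CPM between the mice of a pair was 1.47 for Mup1, 1.29 for Mup9, 1.26 for Mup17, 1.06 for Mup2, 0.948 for Mup11, 0.925 for Mup10 and 0.796 for Mup7. It was 0.247 for Mup3, 0.246 for Mup20 and 0.309 for Mup21, near the median over all genes of 0.274. Even Mup7, the least variable of the 7, lay above 93.7% of genes, and Mup3 above 46.9%. In control females the split was less clear, since Mup20 and Mup21 varied there as much as the copies.

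**Figure D4:**
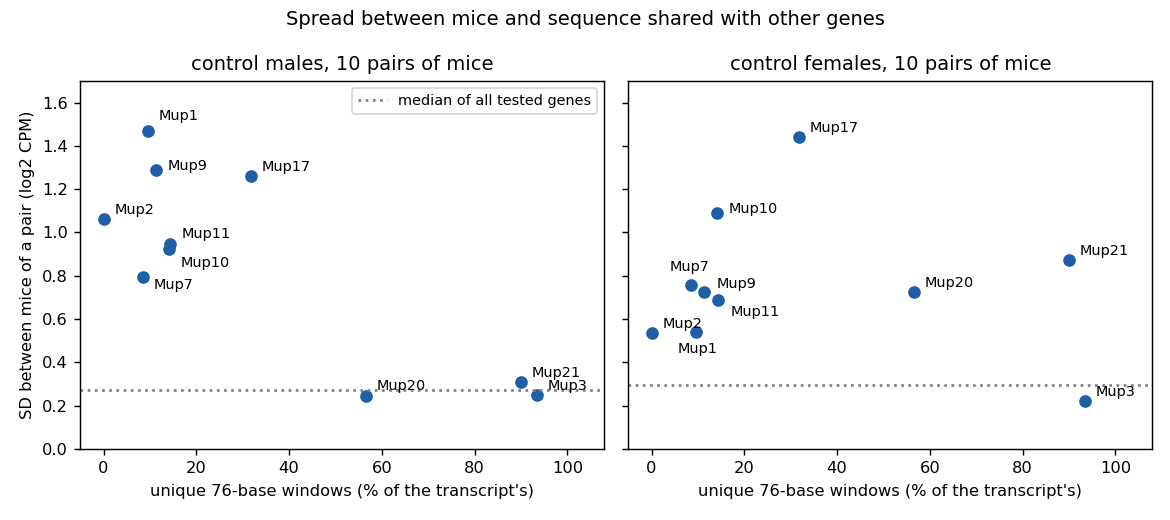
Pooled standard deviation of log2 CPM between the 2 mice of a pair (10 pairs per panel) against the percent of each transcript's 76-base windows found in no other transcript, for control males and control females; the dotted line is the median over all tested genes. In males Mup3, Mup20 and Mup21 lie near that line and the 7 near-identical genes above 0.79, while in females only Mup3 lies at or below it.

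Added together, the 7 rows varied more between paired mice than the 3 distinct genes did. These partial sums were formed after the data had been seen. The sum over the 7 rows had a pooled standard deviation of 0.866 in control males and 1.45 in fasted males, while Mup3, Mup20 and Mup21 together had 0.147 and 0.234. The fasted value of the 7 rows holds the CT28 pair, at 213 and 8257 CPM, the furthest apart of the male pairs. A value without that pair was not computed, so a wider spread with fasting is not read from it. With 9 other numbered Mup rows added to the 7, it was 0.882 and 1.34. In control males the 7 rows ran from 1279 to 11990 CPM (median 6736), and the other 3 from 7067 to 10270 CPM (median 9282). Single livers stood far below their partners: control male replicate 1 at CT16 had 1279 CPM in the 7 rows and 7067 in the other 3, and fasted male replicate 1 at CT28 had 213 and 5116 CPM. Fasted male replicate 1 at CT16 (1190 CPM), fasted male replicate 2 at CT12 (2023) and control male replicate 1 at CT20 (2371) were also low in the 7 rows.

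**Figure D5:**
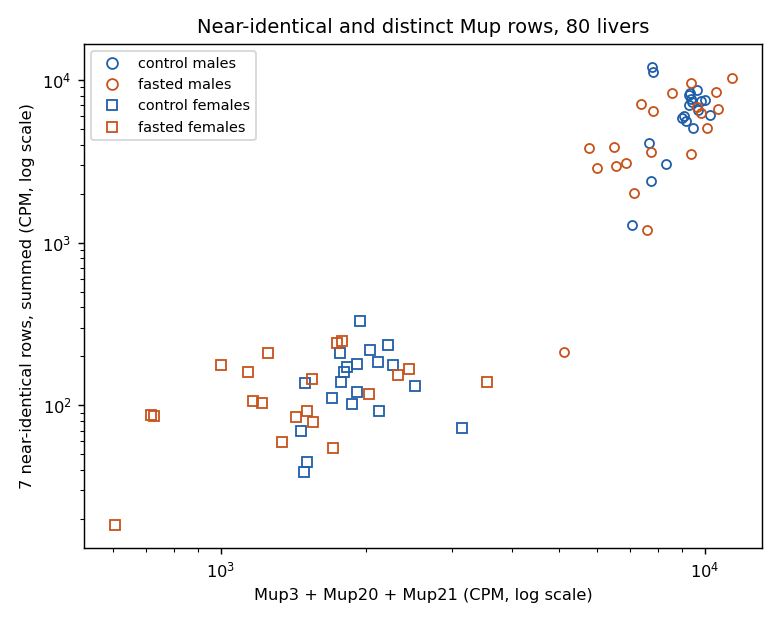
Summed CPM of the 7 near-identical rows against summed CPM of Mup3, Mup20 and Mup21, both on log axes, for 80 livers; circles are males, squares females, blue control and orange fasted. Control males span 1279 to 11990 CPM upward but only 7067 to 10270 CPM across, and fasted male replicate 1 at CT28 lies apart at 213 CPM.

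Several of the near-identical rows went closely with Mup7 in males. Over the 40 males the correlation of log2 CPM with Mup7 was 0.949 for Mup11, 0.939 for Mup17, 0.935 for Mup1, 0.855 for Mup9, 0.749 for Mup2 and 0.608 for Mup10. Over the 40 females it was 0.755 for Mup1 and lower for the rest, from 0.539 for Mup11 to 0.349 for Mup2 and -0.114 for Mup10. In males it was 0.793 for Mup3, 0.401 for Mup21 and 0.0105 for Mup20, so that Mup20 kept its level in males where Mup7 was low. Counts of Mup20 per count of Mup7 ran from 0.253 to 19.2 in males, with a median of 0.502. These correlations are descriptions over 40 livers, and the part of reads shared between near-identical rows was not tested.

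Fasting differences of both partial sums were alike in size and unlike in their error. Over the 7 rows the difference was -0.35 (adjusted p = 0.158), and over Mup3, Mup20 and Mup21 together -0.33 (adjusted p = 4.15e-05). At CT36 to CT44 the 7 rows ran from 4082 to 11990 CPM in control males and from 2867 to 3889 CPM in fasted males, without overlap, and overlapped in females. The 3 distinct genes ran from 7681 to 9833 CPM in control males and from 5756 to 7744 in fasted males, a slight overlap, and from 1468 to 2213 and 605 to 1433 CPM in females, without overlap. The sex difference was 5.52 on the log2 scale over the 7 rows and 2.22 over the 3 distinct genes.

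Coverage of exon bins was steadiest for the distinct genes. In the 20 control males the profile of counts over a gene's exon bins overlapped between livers by a median of 98.2% for Mup3 (lowest pair 95.2%), 96.9% for Mup21 (90.9%) and 94.4% for Mup20 (78.8%). The medians were 90.8% for Mup7, 82.4% for Mup10, 82.1% for Mup9, 74.9% for Mup11, 73.1% for Mup17, 60.9% for Mup2 and 40.2% for Mup1, where the lowest pair shared 4.27%. Exon-bin counts per gene count ran from 2.05 to 2.32 across livers for Mup3, from 1.78 to 2.07 for Mup21 and from 1.56 to 2.80 for Mup20. Among the near-identical rows they ran from 1.47 to 2.80 for Mup7, 0.44 to 0.871 for Mup9 and 0.645 to 2.27 for Mup11. Ranges were far wider for Mup17 (1.42 to 22.1), Mup2 (0.115 to 57.1), Mup1 (0.308 to 60.4) and Mup10 (0.103 to 138). By this measure Mup7 and Mup9 varied about as much as Mup20 and more than Mup3 and Mup21. How reads were assigned among the copies is not given in the sources used here, and its part in these values was not tested.

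Known regulators of Mup and sex-biased transcription changed with fasting as well. Of 20 regulators 5 rose and 13 fell (median -0.28), beside 29.5% and 32.9% of all genes. In males alone 5 rose and 7 fell (median -0.09), beside 22.1% and 24.3% of all genes. In females alone 4 rose and 13 fell (median -0.38), beside 27.7% and 30.7%. The difference of the fasting effect between the sexes, males minus females, was called for 8 of the 20, all of them above 0, beside 12.4% of all genes. Ghr, the growth hormone receptor, fell by 0.87 (SE 0.0637, adjusted p = 3.02e-16), and Nr3c1, the glucocorticoid receptor, fell by 0.46 (SE 0.0278, adjusted p = 3.38e-19). Cebpb, a transcription factor of the acute phase, rose by 1.09 (SE 0.0889, adjusted p = 9.36e-15), and Nfia, a nuclear factor I protein, rose by 0.37 (SE 0.0403, adjusted p = 3.74e-11).
Of the 17 male-biased genes 12 fell and 2 rose, with a median of -0.86: Hsd3b5 fell by 4.62, Selenbp2 fell by 3.02, Nudt7 fell by 2.05 and Ugt2b1, a glucuronosyltransferase, fell by 0.99, larger changes than that of the Mup sum. Of the 15 female-biased genes 3 rose, among them Fmo2 (1.54) and Cyp17a1 (1.47), and the list's median was -0.15. By sex the list differed: 2 rose and 6 fell in females (median -0.47), beside 27.7% and 30.7% of all genes. In males 4 rose and 0 fell (median 0.36), beside 22.1% and 24.3%. These genes stood far lower in control males than in control females (median log2 -8.44). The difference of the fasting effect between the sexes was called for 4 of the 15, beside 12.4% of all genes. Among markers of other cells, 4 of 5 Kupffer cell genes fell (summed level 169 to 578 CPM in controls, 121 to 370 in fasted livers) and 4 of 4 cholangiocyte genes fell (17.8 to 56.2 and 5.33 to 35.7 CPM). The hepatocyte list had 3 that rose and 2 that fell, with a summed median of 80130 CPM in controls and 84940 in fasted livers. The part of these in the Mup result was not tested.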

How the data were processed

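The libraries were prepared from poly(A) RNA with a strand-marking kit. The submitters' processing notes name Trimmomatic, HISAT2, DESeq2 and build GRCm39, and the counting program is not given in the sources used here. The authors deposited raw counts per gene and per exon bin, used here, and normalised values, not used here. Groups came from the sample titles. The members and lists were chosen with earlier results of these data known. Named genes were the 10 members and their sum, up to 4 per list by the smallest p of the fasting effect, and the 5 rows most like the family. A gene that this rule names is not reported here. Other genes in the closing section were chosen after their values were seen.

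Counts were fitted in edgeR 4.0.16 (R 4.3.3) with 1 mean per treatment, time and sex over 80 libraries: filterByExpr, TMM scaling, trended dispersion and the quasi-likelihood test, with Benjamini-Hochberg adjustment over all rows. The summed row was added after scaling. Fits were tested on simulated data. Log2 CPM used a prior count of 2. Alternatives used DESeq2 1.42.0, limma-voom (limma 3.58.1), other scalings, filters and mice left out. RefSeq and GENCODE M21 sequences are on GRCm38, so no gene coordinates were joined to the counts. Sums over 7 and over 3 rows, the late contrast, the TATATAA search, the exon-bin profiles and the liver zonation lists were added after seeing the data. Lists of stellate, sinusoidal endothelial and T cell markers were also counted: with fasting, 1 of 4 stellate genes rose and 3 fell, 1 of 4 endothelial genes rose and 2 fell, and of 3 T cell genes 0 were called by edgeR, 0 of them with an unadjusted p under 0.05.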

Additional observations from a re-analysis of the deposited data

Results flagged for a closer look

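The fasting difference was lower at CT36 to CT44 than at CT12 to CT20 for 5 quantities, by a test of the difference itself with edgeR, on a contrast chosen after the data had been seen. On the log2 scale the change was -0.85 for the sum of the 10 members (adjusted p = 0.00568), -2.15 for Mup2 (adjusted p = 0.00174), -1.92 for Mup10 (adjusted p = 0.0112), -0.89 for Mup21 (adjusted p = 0.0365) and -0.68 for Mup3 (adjusted p = 0.00689). Mup2 and Mup10 are near-identical rows whose counts are uncertain, and Mup3 and Mup21 are mostly distinct in sequence. Of all genes 11.3% were lower in this contrast. Markers of several cell types moved in it too: 4 of 5 Kupffer cell, 3 of 4 stellate, 2 of 5 hepatocyte, 1 of 4 endothelial and 1 of 4 cholangiocyte genes were lower, and 0 were higher. Of 17 male-biased genes 11 were lower, and of 20 regulators 3 were lower and 1 was higher. The part of these genes in the result was not tested.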

How the results depend on the processing

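The sex difference in control livers kept its direction and call under all 26 alternatives for the sum (2.22 to 5.52) and for 10 of 10 members. The fasting difference of the sum lost its call over the 7 near-identical rows (-0.35, adjusted p = 0.158) and in 1 of the 4 fits that left out a numbered set of mice, which ran from -0.52 to -0.26. The count of members called, 3, was 10 with no filter on low counts, 5 by DESeq2 and 4 to 6 with a set of mice left out. Beside these, 6827 of the 45359 rows fitted with no filter fell, and 6990 of 21187 genes fell by DESeq2. With mice left out the share of all genes that fell is not given here. With no filter the adjusted p of Mup2 went to 4.35e-127 while its estimate stayed at -1.03. The cause was not tested. The count of 9 times called, 3, was 0 over the 7 rows, 0 in males alone, 1 in females alone and 0 to 2 with mice left out. The late minus early difference of the sum was not called over the 7 rows (-1.04, adjusted p = 0.161) or in males alone (-0.76, adjusted p = 0.175), and ran from -1.06 to -0.62 with mice left out. Its count of members, 4, was 10 with no filter, where the share of all genes called is not given here.

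The difference between the sexes changed sign over the 7 rows (-0.29) and ran from -0.11 to 0.41 with mice left out. Its count of members, 0, was 3 with no filter, where the share of all genes called is not given here. For single members the sign of this difference turned with the replicate block for Mup1 (-0.0713) and Mup21 (-0.0508). By limma-voom it turned for Mup21 (-0.0682). With mice left out it turned too, in ranges of -0.442 to 1.29 for Mup1, -0.46 to 0.324 for Mup2, -0.466 to 0.261 for Mup7, -0.615 to 0.235 for Mup9, -1.20 to 0.121 for Mup17 and -0.209 to 0.128 for Mup21, and the late minus early difference of Mup1 ran from -1.99 to 0.00563. With no filter the difference of the sum's rhythm was called (0.43, edgeR adjusted p = 0.0335), as were 8 members for a rhythm in fasted livers and 8 for its difference. With a 12 h harmonic 1 member, Mup10, was called as rhythmic in controls. Shares of all genes called under these settings are not given here. With mice left out, the sum's rhythm ran from 0.14 to 0.35 in controls and 0.18 to 0.35 in fasted livers, and its difference from 0.32 to 0.61.

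Replicate numbers did not pair the mice: of 20 fasted and control pairs 1 correlated above 0.1 (median 0.00193), and of 20 male and female pairs 5 did (median 0.0161). With the replicate block the fasting difference of the sum was -0.40 (edgeR, adjusted p = 0.000332). The count of members was 4, beside 6818 of 21187 genes that fell. There the sex difference was 2.88 in controls and 3.05 in fasted livers, and the difference between the sexes 0.12. The late minus early difference was -0.87, and the rhythm 0.20, 0.27 and, for the difference, 0.46. Depth is not the limit for the sum, at 21829 or more counts per library, but Mup1 in females had at most 128 counts.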

Other observations

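Hepatocyte zonation genes went with the 7 near-identical Mup rows between livers of the same group. Both the lists (8 pericentral and 8 periportal genes) and the comparison itself were chosen with the data in view. The values are correlations of deviations from the group mean of log2 CPM over 40 livers of a sex. The 2 mice of a group mirror each other there, so that 20 pairs stand behind them. These pairs do not weigh alike. The male pair furthest apart in the 7 rows was fasted CT28, at 213 and 8257 CPM, and it weighs most in the male values. Correlations without that pair were not computed. In males 8 of 8 pericentral genes had a positive correlation with the 7-row sum (median 0.616), from Axin2 (0.1) to Cyp2e1 (0.856) and Glul (0.867). Of 8 periportal genes 1 had (median -0.53). That gene was Cyp2f2 (0.53), and the others ran from Pck1 (-0.0224) to Gls2 (-0.757) and Hsd17b13 (-0.763). Over all genes the middle range was -0.244 to 0.294. In females 7 of 8 pericentral genes were positive (median 0.396) and 1 of 8 periportal genes (median -0.531). Glul encodes glutamine synthetase of the hepatocytes around the central vein, and Gls2 the liver glutaminase.

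Among 11557 genes, those closest to the 7-row sum in males were Dio1, the thyroid hormone deiodinase (0.958, and 0.434 in females), ENSMUSG00000124961 (0.953 and 0.654), Ugt3a1 (0.946 and 0.524), Susd4 (0.942 and 0.4) and Cyp2d9 (0.921 and 0.597). The most opposed were Etnppl (-0.912 and -0.655), Elovl2 (-0.869 and -0.487) and Cbs, cystathionine beta-synthase (-0.866 and -0.861). Of the distinct members, Mup3 had 0.895 in males and 0.516 in females, Mup21 0.313 and -0.597, and Mup20 -0.029 and -0.703. Fasted male replicate 1 at CT28, with 213 CPM in the 7 rows, had 29.4 CPM of Dio1 against 160 in its partner, 354 CPM of Glul against 699.6, 4702 CPM of Cyp2e1 against 8495, 598 CPM of Etnppl against 172 and 819 CPM of Cbs against 424. These 5 genes were named for correlations that include this pair, so its values are not separate evidence. No cause was tested.

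Among the 12 other numbered Mup rows, 11 were higher in control males, and Mup5 was higher in control females (log2 -1.33, males minus females, adjusted p = 0.000865). With fasting 0 of the 12 were called by edgeR, and 0 had an unadjusted p under 0.05. The 10 members held 73.9% to 95.1% of all numbered Mup counts in males and 82.6% to 98.4% in females.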
